A study of Mus musculus with 4 samples.

Results

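Collagens are the triple-helical proteins that build fibrils, basement membranes and the networks between them. Their genes were taken from arrays of sorted mouse lung alveolar macrophages as all genes whose symbol begins with Col, a chain-family number, a and a chain number. In the RefSeq table used for naming, 44 genes match that pattern, and 42 of them had at least 1 probe among the 19751 named genes of the array. Col6a3 and Col12a1 had no probe matched by accession and were not analysed here. The groups were wild-type (WT) mice and mice lacking the transcription repressor Bach2 (Bach2KO). The sorted cells of 8 WT mice were pooled, as were those of 3 Bach2KO mice (the number in the design text; the treatment protocol has 4). Strain, age, sorting gate and the nature of the Bach2 allele are not given in the sources used here. Each genotype was thus 1 RNA sample, split in 2 ahead of amplification and hybridised to 2 arrays. The pair of arrays is a technical repeat, so no difference between WT and Bach2KO has a replicate check, and no p-value is given.

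Each collagen chain carries long glycine-rich repeats, and chains join as trimers of identical or different chains. Fibrillar collagens I, III and V are the main products of fibroblasts, collagen IV forms the sheet of basement membranes under epithelium and endothelium, and collagen VI forms beaded microfibrils. FACIT collagens (fibril-associated collagens with interrupted triple helices) decorate fibrils, and other members span the cell membrane or anchor epithelium. Macrophages take up and degrade collagen, and a few members, among them collagen VI and collagen VIII chains, are known to be made by macrophages. The comparison asked how the transcripts of alveolar macrophages differed without Bach2, and collagen transcripts also give a view of fibroblast RNA in the sorted cells.

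Signals are given as log2 of the processed signal relative to the 75th percentile of the same array (between 979 and 1513 on the 4 arrays). A gene is represented by its brightest probe. A gene was measured where, in WT or in Bach2KO or in both, neither array left that probe near background, which held for 15115 genes. It was called higher or lower where every one of the 4 pairings of a Bach2KO with a WT array gave a 2-fold or larger difference of that sign. Where a probe was not well above background on an array of the dimmer genotype, a lower bound computed against the detection limit also had to reach 2-fold. By this rule 8.36% of all measured genes were higher in Bach2KO and 5.89% lower. Probes bind with different strength, so no probe's level is set against another's. The deleted gene gave no check of the labels, as the Bach2 probe was above background on 1 WT array (-6.28; the other -6.32) and 1 Bach2KO array (-5.16; the other -8.13). The 14 alveolar macrophage markers listed were all well above background on all 4 arrays, with 7 lower in Bach2KO and 1 higher. In an RNA sample from many cells, fewer cells of a type and less RNA per cell cannot be told apart.

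Of the 42 collagen genes, 23 were measured, and 17 of these were well above background on all 4 arrays. Between 18 and 25 collagen genes were above background on each array, 18 and 20 in WT and 23 and 25 in Bach2KO. Among the 23 measured members 6 were higher in Bach2KO (Col2a1, Col4a1, Col4a2, Col5a3, Col6a4 and Col8a2), 1 was lower (Col14a1) and 16 met neither condition. Members that were above background only in Bach2KO, such as Col4a1 and Col5a3, entered through that genotype, so the fairer count is that of the 17 members above background throughout. Of those 3 were higher (Col4a2, Col6a4 and Col8a2) and none lower, where 6.86% of the 14191 genes above background on all 4 arrays were higher and 5.48% lower. Scaled to spike-in RNA in place of the 75th percentile, which lowered every difference by 0.72, 3 members were higher (Col4a1, Col4a2 and Col8a2) and 2 lower (Col14a1 and Col20a1). Under that scaling 4.15% of measured genes were higher and 21.0% lower.

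**Figure D1:**
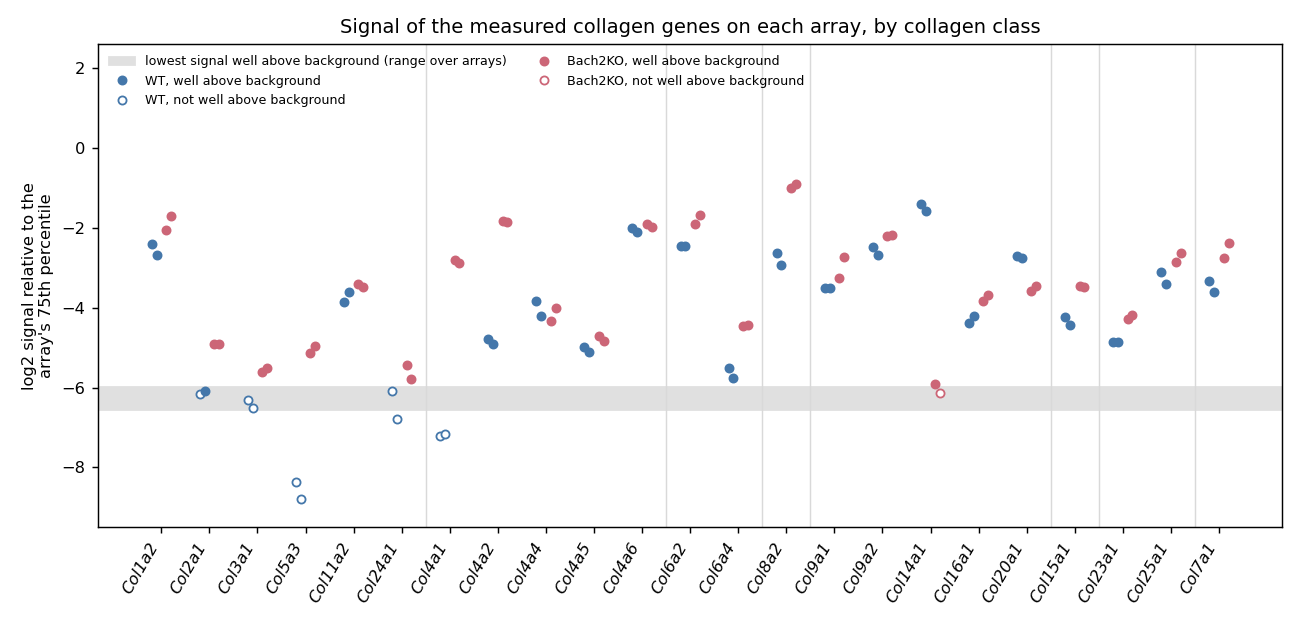
Log2 signal of the 23 measured collagen genes relative to the 75th percentile of each array, with 1 point per array (blue WT, red Bach2KO; open points were not well above background) and grey lines between collagen classes. The grey band is the range over arrays of the lowest signal well above background. The Col4a1, Col4a2, Col5a3 and Col8a2 points of Bach2KO lie above those of WT, and those of Col14a1 below.

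Among the basement membrane collagens Col4a1 and Col4a2 were higher in Bach2KO, and their products join as the main collagen IV trimer of most basement membranes. Col4a1 was at -7.22 and -7.15 in WT, neither well above background, and at -2.81 and -2.87 in Bach2KO. It was at least 11.3-fold higher in Bach2KO. Col4a2 was above background on every array, with -4.77 and -4.91 in WT and -1.82 and -1.85 in Bach2KO. This is an 8.05-fold higher signal, a difference of 3.01 on the log2 scale. The call itself requires both arrays of Bach2KO to lie above both of WT. The gap between arrays of 1 RNA sample shows technical spread alone. With spike-in scaling Col4a1 was at least 6.89-fold higher, and Col4a2 differed by 2.29. With normexp background correction, which raises dim signals by an offset, they differed by 1.82 and 2.03.

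Col4a1 and Col4a2 lie head to head on mouse chromosome 8 and are transcribed in opposite directions from a shared promoter region. Their RefSeq promoter windows, each 250 bases before to 50 after the annotated start in GRCm38.p6, are shown because these chains moved together. The Col4a1 window is chr8:11312777-11313076 on the minus strand and the Col4a2 window chr8:11312555-11312854 on the plus strand. Capitals mark the 78 bases that the windows share, each written 5′ to 3′ on its own strand, so that the capitals of one are the reverse complement of the other. The annotated starts are 21 bases apart.
Col4a1: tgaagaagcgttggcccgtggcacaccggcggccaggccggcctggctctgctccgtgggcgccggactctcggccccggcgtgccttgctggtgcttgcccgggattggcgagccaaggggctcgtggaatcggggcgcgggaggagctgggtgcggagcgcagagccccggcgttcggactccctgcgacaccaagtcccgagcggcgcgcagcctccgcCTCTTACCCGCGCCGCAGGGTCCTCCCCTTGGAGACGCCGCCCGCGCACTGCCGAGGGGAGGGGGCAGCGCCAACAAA
Col4a2: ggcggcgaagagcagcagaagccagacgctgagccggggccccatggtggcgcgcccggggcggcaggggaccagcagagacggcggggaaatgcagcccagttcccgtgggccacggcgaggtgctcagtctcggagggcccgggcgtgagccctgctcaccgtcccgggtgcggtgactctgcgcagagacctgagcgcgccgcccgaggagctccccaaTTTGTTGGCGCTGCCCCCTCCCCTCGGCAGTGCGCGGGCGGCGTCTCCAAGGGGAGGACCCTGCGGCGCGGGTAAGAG
Searched on both strands, the Col4a1 window held 1 match to CCAAT and 1 to GGGCGG (the GC box), and the Col4a2 window 1 and 3. CCAAT was found in 37.4% of all 32851 windows and GGGCGG in 35.7%. TGANTCA, the core of AP-1 sites and of the Maf recognition elements that Bach factors bind, had 0 matches in either window, against 7.81% of all windows. Among 37 windows of 34 collagen genes 1 held TGANTCA, 13 CCAAT and 23 GGGCGG. A match is a description of the letters alone, and its absence says only that they are not in this window.

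The other collagen IV chain genes were not called. Col4a3, Col4a4 and Col4a5 make the trimer of kidney and lung alveolar basement membranes, and Col4a5 also pairs with Col4a6. Col4a4 had signals of -3.84 and -4.22 in WT and -4.34 and -4.02 in Bach2KO, so the genotypes overlapped. A second measured Col4a4 probe differed by 0.76, against -0.15 for the brightest. Col4a5 was at -4.98 and -5.10 in WT and -4.71 and -4.83 in Bach2KO, a difference of 0.27. Col4a6 differed by 0.11, from -2.00 and -2.11 to -1.92 and -1.98. With spike-in scaling the differences of Col4a4, Col4a5 and Col4a6 were -0.87, -0.45 and -0.61. Col4a3 was not well above background on any array.

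Col8a2 encodes a short-chain collagen that forms hexagonal networks in Descemet's membrane of the cornea and around vessels. Its signals were -2.64 and -2.92 in WT and -1.01 and -0.90 in Bach2KO, 3.54-fold higher, with array pairs from 1.63 to 2.02. The call held with spike-in scaling (1.11). A second Col8a2 probe for the same transcript was not well above background on any array, so the call rests on 1 probe. The partner chain gene Col8a1 and the growth plate cartilage gene Col10a1 were not above background on any array.

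Among the fibrillar collagens 6 of 11 were measured, 2 were higher and none lower, where 8.36% of all measured genes were higher. Of the 2 above background on all 4 arrays, Col1a2 and Col11a2, none was called. Col5a3, a chain of collagen V that regulates fibril diameter, had signals of -8.36 and -8.79 in WT, neither above background, and of -5.14 and -4.97 in Bach2KO. It was at least 2.46-fold higher, and with spike-in scaling the bound of 1.49-fold did not reach the threshold. Col2a1, the cartilage collagen, was at -6.15 and -6.08 in WT, above background on 1 of the 2 arrays, and at -4.91 and -4.90 in Bach2KO. It was at least 2.31-fold higher, close to the threshold, and at least 1.40-fold with spike-in scaling, which is no call. The chondrocyte markers gave no further call, as 3 of 8 were measured, none was called, and Sox9, the factor that drives Col2a1 in cartilage, was not above background on any array. Of the measured markers, Acan, the cartilage proteoglycan, differed by 0.29 and Snorc by 0.75.

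The Col5a3, Col8a2 and Col6a4 promoter windows are shown beside those of collagen IV because these genes were called higher too. The Col5a3 window is chr9:20815018-20815317 on the minus strand and the Col8a2 window chr4:126286544-126286843 on the plus strand. The Col6a4 window is chr9:106096642-106096941 on the minus strand, and all are from RefSeq in GRCm38.p6. Capitals mark GGGCGG on either strand, with 3 matches in Col5a3, 2 in Col6a4 and 4 in Col8a2, of which the last pair overlaps. TGANTCA had 0 matches in each.
Col5a3: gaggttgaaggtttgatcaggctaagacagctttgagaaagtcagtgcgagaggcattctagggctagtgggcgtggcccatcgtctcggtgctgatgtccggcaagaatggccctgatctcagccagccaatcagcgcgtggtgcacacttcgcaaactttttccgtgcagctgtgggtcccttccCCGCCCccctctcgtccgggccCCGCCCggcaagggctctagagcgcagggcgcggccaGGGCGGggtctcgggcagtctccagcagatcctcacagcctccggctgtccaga
Col8a2: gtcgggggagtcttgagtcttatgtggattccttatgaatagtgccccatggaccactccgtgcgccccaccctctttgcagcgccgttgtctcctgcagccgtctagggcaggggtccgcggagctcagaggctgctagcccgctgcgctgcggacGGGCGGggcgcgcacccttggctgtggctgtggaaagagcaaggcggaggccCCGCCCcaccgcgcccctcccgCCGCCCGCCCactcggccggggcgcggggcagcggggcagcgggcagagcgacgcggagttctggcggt
Col6a4: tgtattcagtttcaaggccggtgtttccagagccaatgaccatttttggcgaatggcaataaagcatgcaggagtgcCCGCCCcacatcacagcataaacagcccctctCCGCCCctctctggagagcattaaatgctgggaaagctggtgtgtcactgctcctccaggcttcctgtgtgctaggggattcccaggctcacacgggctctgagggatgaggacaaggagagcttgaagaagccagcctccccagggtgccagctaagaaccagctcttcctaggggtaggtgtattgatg
Col2a1 and Col14a1 had no window in the table.

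None of the fibrillar collagens I and III, which mark fibroblasts, was called. Col1a1 encodes the major chain of collagen I and was not well above background on any array. Col1a2, the second chain of that trimer, was above background throughout, at -2.41 and -2.67 in WT and -2.04 and -1.72 in Bach2KO. Its difference of 0.66 met neither condition, and spike-in scaling turned it to -0.060. Col3a1, the fibrillar collagen of compliant tissues such as lung and vessel wall, was not above background in WT (-6.30 and -6.52) and was just above it in Bach2KO (-5.61 and -5.50). Col3a1 differed by 0.85 and met neither condition. Col5a1 was above background on 1 Bach2KO array alone, and Col5a2, Col11a1 and Col27a1 on none. Col11a2 differed by 0.28 (-3.85 and -3.60 in WT, -3.41 and -3.49 in Bach2KO), and Col24a1, dim in WT, by 0.83 (-6.08 and -6.79 in WT, -5.43 and -5.78 in Bach2KO).

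Markers of fibroblasts other than collagens were read from a list of 22 genes. Of these 9 were not well above background on any array, among them Pdgfrb, Dpt, Postn, Gli1 and Prrx1, and 13 were measured, with 2 higher, none lower and 11 neither. Of the 8 above background on all 4 arrays 1, Thy1, was higher and none lower. Spike-in scaling gave 2 calls in each direction for the list. Of all measured genes 8.36% were higher and 5.89% lower, and with spike-in scaling 4.15% and 21.0%. Of all genes above background on all 4 arrays 6.86% were higher, so that 1 of 8 is near that share. Pdgfra, the platelet-derived growth factor receptor of fibroblasts, was not above background in WT (-8.20 and -8.60) and at -3.70 and -3.67 in Bach2KO, at least 6.33-fold higher. Thy1, a surface glycoprotein of fibroblasts and T cells, was 6.38-fold higher. The matrix proteoglycan genes Dcn and Lum, abundant in fibroblasts, differed by 0.48 and 0.02. Fap, on the same list, went the other way without meeting the rule, and its values are given in the closing section. The summed signal of the 22 markers, each relative to the 75th percentile, was 0.523 and 0.470 in WT and 0.792 and 0.833 in Bach2KO. The summed signal of the 42 collagen genes was 2.31 and 2.09 in WT and 3.04 and 3.36 in Bach2KO. On the log2 scale the sums differed by 0.71 for the markers and 0.54 for the collagens. With spike-in scaling these values were -0.008 and -0.18, so the direction turned. The part of fibroblast RNA in the collagen differences was not tested.

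Collagen VI was represented by 5 genes. Col6a2, a chain of the classical collagen VI trimer, was at -2.46 on both WT arrays and at -1.92 and -1.68 in Bach2KO. The difference of 0.66 met neither condition, and spike-in scaling turned it to -0.062. Its partner Col6a1 was above background on 1 Bach2KO array alone. Col6a4, a long chain thought to take the place of Col6a3, was higher, from -5.52 and -5.75 to -4.46 and -4.43. That 2.29-fold difference was close to the threshold and was 0.47 with spike-in scaling. A second Col6a4 probe was not above background, and Col6a5 and Col6a6 were not above background on any array.

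Col14a1 was the collagen that was lower in Bach2KO. It encodes a FACIT collagen, also called undulin, that binds the surface of collagen I fibrils. Its brightest probe had signals of -1.41 and -1.59 in WT and of -5.90 and -6.15 in Bach2KO, where it was above background on 1 of the 2 arrays. The signal was at least 21.7-fold lower, and at least 35.7-fold lower with spike-in scaling, while normexp correction gave a difference of -2.41. The other Col14a1 probe, assigned to the same transcript, was above background on all 4 arrays and differed far less, with -4.22 and -4.36 in WT and -4.89 and -4.92 in Bach2KO. That probe differed by -0.61 and met neither condition. Both probes were lower on each Bach2KO array than on each WT array, but the size of the difference depends on the probe.

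The remaining FACIT collagens were measured for 4 of 7 genes, and none was called. Col20a1, a FACIT collagen of little-known function, had signals of -2.71 and -2.76 in WT and -3.58 and -3.47 in Bach2KO. Its difference of -0.79 missed the threshold and became -1.51, a lower call, with spike-in scaling. The other Col20a1 probe was lower by the rule, from -2.87 and -2.96 to -4.65 and -5.13. Col9a1 and Col9a2, chains of the cartilage collagen IX, differed by 0.51 (-3.50 and -3.51 in WT, -3.26 and -2.72 in Bach2KO) and 0.40 (-2.48 and -2.69, then -2.20 and -2.18), while the third chain gene Col9a3 was not above background. Col16a1, at -4.38 and -4.20 in WT and -3.82 and -3.69 in Bach2KO, differed by 0.54 by its brightest probe and by 0.69 and 0.80 by the other probes, each measured in Bach2KO. Col19a1 and Col22a1 were not above background.

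**Figure D2:**
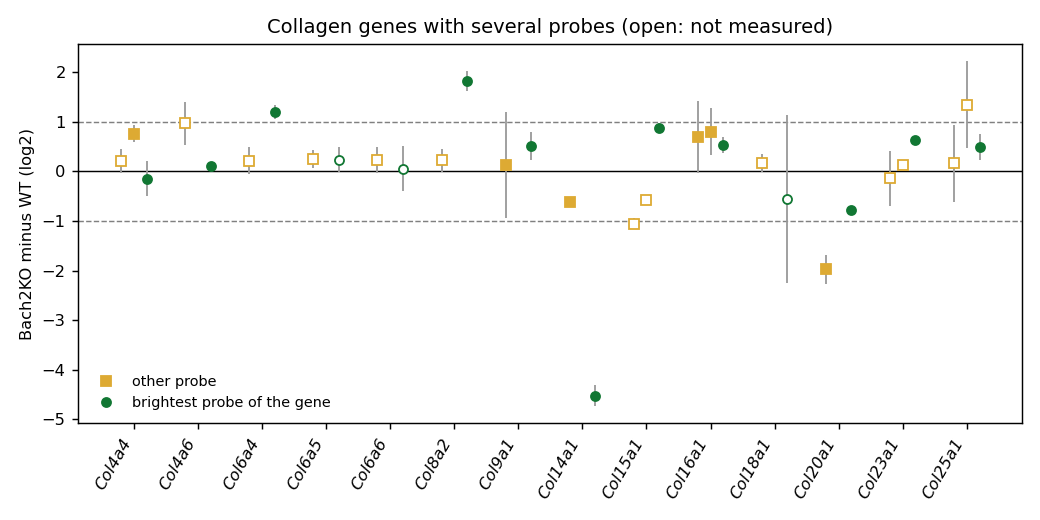
Difference between the genotypes (Bach2KO minus WT, log2) for each probe of the 14 collagen genes with several probes (green circles, brightest probe; yellow squares, other probes; open symbols, probes not measured; bars, range of the 4 array pairs; dashed lines, 2-fold). The probes of Col14a1 are furthest apart, at -4.52 and -0.61.

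Col15a1 and Col18a1 encode the multiplexins, basement membrane collagens whose ends release the fragments restin and endostatin. Col15a1 was at -4.24 and -4.43 in WT and -3.46 and -3.47 in Bach2KO, a difference of 0.87 just under the threshold. The dimmer Col15a1 probes were not measured and had differences of -1.06 and -0.58, opposite in sign to that of the brightest. Col18a1 was above background on 1 WT array alone. Of the transmembrane collagens Col23a1 differed by 0.64 (-4.87 and -4.86 in WT, -4.27 and -4.18 in Bach2KO) and Col25a1, the collagen found in amyloid plaques, by 0.50 (-3.10 and -3.40, then -2.86 and -2.64). Col13a1 and Col17a1, the hemidesmosome collagen of epithelium, were not above background. Col7a1, the anchoring fibril collagen under stratified epithelium, was at -3.33 and -3.61 in WT and -2.76 and -2.39 in Bach2KO. Its difference of 0.90 met neither condition, as array pairs reached from 0.57 to 1.23. Col28a1 was above background on 1 Bach2KO array (-5.11; the other -8.45), and Col26a1 on none.

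Many uncalled differences were small and of the same sign. Of the 23 measured members 20 had a positive and 3 a negative difference (Col4a4, Col14a1 and Col20a1), with a median of 0.66 against 0.06 for all measured genes, and of 0.54 against 0.05 for those above background on all 4 arrays. With spike-in scaling 10 of 23 were positive, with a median of -0.062 against -0.66 for all measured genes. The 6010 measured genes whose probes were of like brightness, with mean signals within the range of the collagen probes from -6.81 to -1.87, had a median difference of 0.21, and 11.0% of them were higher and 6.11% lower. The 15 collagens that were above background on no array had a median difference of 0.20, and all 3887 such genes one of 0.23. Values at that level have no order, and the part of low signal in the small positive differences was not tested.

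**Figure D3:**
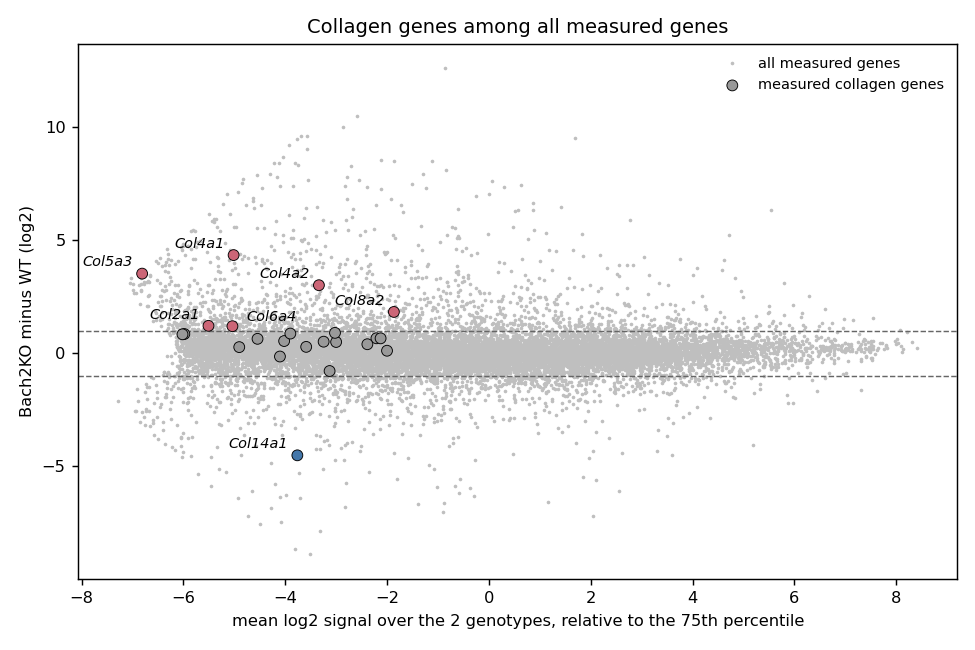
Difference (Bach2KO minus WT, log2) against the mean log2 signal over the genotypes for all 15115 measured genes (grey dots) and the 23 measured collagen genes (large circles; red higher, blue lower, grey neither; dashed lines, 2-fold). The mean signals of the collagen probes span -6.81 to -1.87, and 7 of the 23 genes carry a call.

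Genes of the machinery that makes collagen were read beside the collagens. Of 19 measured genes of modification, folding and secretion 2 were higher and none lower, with a median of 0.18. Of the 18 above background on all 4 arrays 2 were higher. Of all genes 8.36% of those measured and 6.86% of those above background on all 4 arrays were higher. The 2 were Klhl12, an adaptor of the ubiquitin ligase that enlarges vesicles for procollagen export (1.47), and Crtap, part of the prolyl 3-hydroxylase complex (1.31). Neither call held with spike-in scaling (0.75 and 0.59). P4ha2, of the same list, was not above background in WT, and its bound fell just short of the threshold. The prolyl 4-hydroxylase subunit P4ha1, which makes the helix stable, differed by 0.66, and the collagen chaperone Serpinh1 by -0.10, with WT arrays at -4.98 and -6.31. Of 8 measured processing and cross-linking genes only the transglutaminase Tgm2 was higher (2.16-fold, and 0.39 in log2 with spike-in scaling). The lysyl oxidase family genes Loxl1 and Loxl2, which cross-link collagen, differed by 0.52 and 0.76. Of 5 measured collagen receptors none was called, with Itgb1 at a difference of 0.16 and the inhibitory receptor Lair1 at -0.26.

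Collagen-degrading proteases had 6 of 8 measured members higher and 1 lower, and 5 higher and 1 lower with spike-in scaling. Of the 5 that were above background on all 4 arrays 3 were higher and 1 lower. Of all measured genes 8.36% were higher and 5.89% lower, and with spike-in scaling 4.15% and 21.0%. Of all genes above background on all 4 arrays the shares were 6.86% and 5.48%. Mmp2 and Mmp14, a gelatinase and its membrane-bound activator, were at least 30.7-fold and 26.2-fold higher, and the collagenase Mmp13 at least 9.89-fold. The cathepsin Ctsl was 4.42-fold higher, whereas the neutrophil collagenase Mmp8 was lower (difference -1.18). Mmp2, Mmp13 and Mmp14 were not above background in WT and entered through Bach2KO.

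Basement membrane partners of collagen IV were higher for 6 of 14 measured genes and lower for none, and spike-in scaling left 4 higher and made 1 lower. Of the 9 above background on all 4 arrays 2 were higher. Of all genes, 8.36% of those measured and 6.86% of those above background on all 4 arrays were higher. With spike-in scaling 4.15% of measured genes were higher and 21.0% lower. Lamb1, a laminin chain, had signals of -8.13 and -8.47 in WT and -2.49 and -2.50 in Bach2KO, at least 14.5-fold higher. Lama4, the laminin chain of vessel basement membranes, rose from -5.96 and -8.67 to -1.77 and -1.81, and Nid1, which links laminin to collagen IV, from -4.50 and -8.83 to -1.87 and -1.97. Each was above background on 1 of the 2 WT arrays, and the WT arrays lay far apart. The lower bounds from the array means were 22.2-fold for Lama4 and 12.2-fold for Nid1. Against the detected WT array alone, each gene differed by less than its bound. Among fibril-associated proteins 1 of 12 measured genes was higher, near the share over all measured genes. It was Thbs1, at least 21.6-fold higher, which was not above background in WT and entered through Bach2KO. Of the 11 above background on all 4 arrays none was higher.

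**Figure D4:**
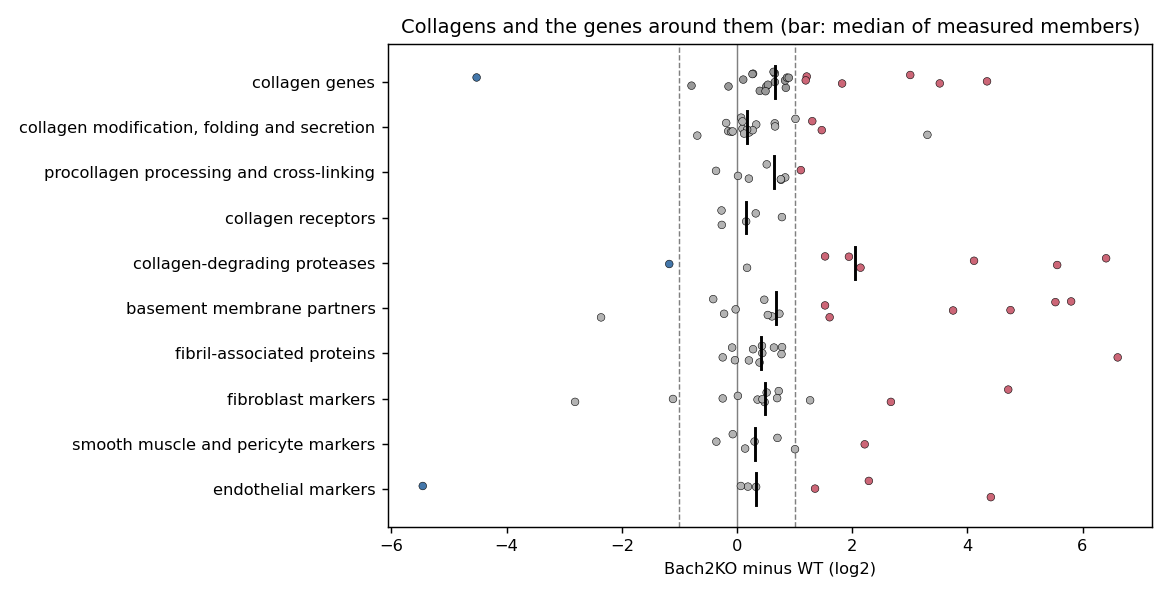
Difference (Bach2KO minus WT, log2) of each measured gene for the collagens and for lists of genes around them (1 point per gene; red higher, blue lower, grey neither; black bar, median; dashed lines, 2-fold). Points beyond 3 on the log2 scale, in either direction, occur among collagens, proteases, basement membrane partners and fibril-associated proteins. They occur among fibroblast and endothelial markers too. Collagen-modifying genes lie mostly between the dashed lines, with P4ha2 beyond 3.

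Markers of other cells that make collagens were read beside these values. Smooth muscle and pericyte markers had 1 of 7 measured members higher, Cspg4 (4.65-fold), and 4 of 12 above background on no array, with summed signals of 1.75 and 1.49 in WT and 2.88 and 3.07 in Bach2KO (a log2 difference of 0.88, and of 0.16 with spike-in scaling). Of the 6 above background on all 4 arrays 1 was higher. Endothelial markers, of cells rich in collagen IV, had 3 of 7 measured members higher and 1 lower, and 1 in each direction with spike-in scaling. Of their 6 members above background on all 4 arrays 2 were higher and 1 lower. Of all measured genes 8.36% were higher and 5.89% lower, and with spike-in scaling 4.15% and 21.0%. Of all genes above background on all 4 arrays the shares were 6.86% and 5.48%. The endothelial cadherin Cdh5 was 21.2-fold higher and the receptor Flt1 43.9-fold lower. Vwf was 2.56-fold and the adhesion gene Esam at least 2.11-fold higher, and neither call held with spike-in scaling. Esam was not above background in WT and entered through Bach2KO. Tek, Emcn, Tie1, Robo4 and Ramp2 were above background on no array. The summed signal of the 12 endothelial markers was 39.4 and 37.8 in WT and 30.3 and 30.4 in Bach2KO (a log2 difference of -0.35, and of -1.07 with spike-in scaling). Such a sum adds probes of unlike binding strength and is weighted to the brightest. The negative sign rests on Flt1, whose mean log2 signal fell from 4.58 in WT to -0.88 in Bach2KO. Vwf went the other way, from 3.08 to 4.44. In the smooth muscle and pericyte sum, Cspg4 rose from -1.54 to 0.68. Epithelial markers had 3 of 12 measured members higher and 1, Epcam, lower (1 in each direction with spike-in scaling), with summed signals of 21.1 and 21.0 in WT and 23.7 and 24.4 in Bach2KO (a log2 difference of 0.19, and of -0.53 with spike-in scaling), and Sftpa1 and Krt8 above background on no array. Of the 9 epithelial markers above background on all 4 arrays 2 were higher and none lower. No mesothelial marker of 5 was above background. The part of these cells in the collagen IV difference was not tested.

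Of leukocyte markers, the monocyte and interstitial macrophage list had 7 of 15 measured members higher and 2 lower, among them the complement gene C1qa (17.0-fold higher). With spike-in scaling 4 were higher and 4 lower. Of the 12 above background on all 4 arrays 5 were higher and 2 lower. Of all measured genes 8.36% were higher and 5.89% lower, and with spike-in scaling 4.15% and 21.0%. T cell markers had 3 of 9 higher, with Cd3d at least 6.15-fold, B cell markers 1 of 6 (Cd79b, at least 2.62-fold), and neutrophil markers 3 of 9, with S100a9 at least 32.4-fold. None of these 3 lists had a lower member, and spike-in scaling left 1 T cell, 0 B cell and 3 neutrophil markers higher. Cd3d, Cd79b and S100a9 were not above background in WT and entered through Bach2KO. Of markers above background on all 4 arrays, 1 of 7 T cell, 0 of 5 B cell and 1 of 7 neutrophil markers were higher. Of all genes above background on all 4 arrays 6.86% were higher and 5.48% lower. Among 9 measured pan-macrophage markers Fcgr1 was lower (13.1-fold) and none higher, and of 12 reference genes B2m alone was higher (2.19-fold, and 0.41 in log2 with spike-in scaling).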

How the data were processed

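RNA from sorted alveolar macrophages was hybridised to 1-colour (Cy3) Agilent mouse arrays, 2 per genotype, grouped by sample title. Per the file headers the deposited spot intensity is linear and was background-subtracted and detrended, array by array, in Agilent Feature Extraction (version 10.7.3.1 there, 9.1 in the submitters' processing notes). The deposited value table holds log2 values, which differed from the log2 processed signal of the same array by a constant (column medians -3.58, -3.67, -3.53 and -3.45).

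Here control and outlier spots were left out, spots of a probe averaged on the log2 scale and each array's 75th percentile subtracted. Each array had 27125 to 27918 of 39429 probes well above background, and 0 of 43020 spots were saturated. Of the probes 26055 had 1 symbol through unversioned RefSeq accessions (GRCm38.p6), 0 had several and 13374 had none. The array number limits precision. A lower bound sets the brighter genotype's mean against, per dim array, its own signal or the dimmest detected one, whichever is higher. It applies to the array means, and a single pair of arrays can differ by less. The 2-fold rule is one of size and not a test.

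Every collagen gene is accounted for. Of the other lists, up to 4 called members with the largest difference or bound are named, or the 2 brightest where none was called, and further genes (Dcn, Lum, Sox9, P4ha1, Serpinh1, Loxl1, Loxl2, Mmp8, genes above background on no array and those of the closing section) were named after their values were seen. Some genes that the rule selects are not reported here. Members and lists were chosen with earlier results of these data known. Alternatives were median centring, quantile normalization, spike-in scaling (9 E1A probes), normexp correction of median spot signals with an offset of 50 (limma 3.58.1, R 4.3.3), the value table, other filters, outlier spots kept, the mean of a gene's probes, 1.5-fold and 3-fold thresholds, array means in place of pairs, a block on the replicate number, and each array left out in turn.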

Additional observations from a re-analysis of the deposited data

How the results depend on the processing

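Among 19 alternatives, Col4a2 and Col8a2 kept their call in all 19, and Col4a1 and Col14a1 in each of the 18 in which they were measured. Several alternatives could not remove a call. The 1.5-fold threshold, array means, no filter on dim probes, and same-numbered or crossed pairs only loosen the rule. Each kept all 1264 higher and 891 lower genes. For Col4a2 and Col8a2, leaving out an array could not remove the call either, as it uses part of the same array pairs. The count of 6 higher collagen genes became 3 with spike-in scaling, with normexp under either scaling, with a 3-fold threshold and under the filter for detection on all 4 arrays, and the remaining 3 are among the 6 in each case. Col2a1 and Col6a4 also lost their calls with median centring (1.08 and 1.06) and quantile normalization (1.04 and 1.02). With normexp and the 75th percentile the differences of Col2a1, Col5a3 and Col6a4 were 0.55, 0.77 and 0.63. The kept calls were smaller too, with the log2 difference without normexp in brackets. Col4a1 was at 1.82 (4.34, with a log2 bound of 3.50), Col4a2 at 2.03 (3.01), Col8a2 at 1.57 (1.83) and Col14a1 at -2.41 (-4.52). With normexp and quantile normalization these 4 were at 1.58, 1.87, 1.48 and -2.59. The count of 1 lower gene became 2 with spike-in scaling, with the mean of the measured probes and at 1.5-fold, where Col20a1 joined, and 0 under the filter for detection on all 4 arrays, since Col14a1 was then not measured.

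The median difference of 0.66 was 0.52 with median centring, 0.46 with normexp and the 75th percentile, 0.25 with normexp and quantile normalization, 0.45 with no filter on dim probes, 0.54 with all 4 arrays above background and -0.062 with spike-in scaling. Leaving out each array gave medians from 0.54 to 0.79, 6 to 7 higher genes and 1 lower. Over all genes, 1264 were higher and 891 lower, against 627 and 3172 with spike-in scaling, 2234 and 1931 at 1.5-fold and 694 and 409 at 3-fold. Same-numbered arrays did not deviate together (correlation -0.25 over 14191 genes). The negative sign means that arrays of unlike number deviated together weakly. With the replicate number as a block, using same-numbered array pairs alone, 6 collagen genes were higher and 1 lower, as with the crossed pairs, an alternative chosen after seeing the data. The cause of the other changes was not tested. Low signal limits the dim members, whose values near the detection limit are bounds.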

Other observations

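Collagen-like helices also occur in proteins outside the collagen family, such as scavenger receptors, complement C1q and collectins. In a list of 38 such genes, drawn up after the data were seen, 23 were measured, with 5 higher, 2 lower and 16 neither. Spike-in scaling gave 4 in each direction. Of all measured genes 8.36% were higher and 5.89% lower, and with spike-in scaling 4.15% and 21.0%. The C1q chain genes C1qa, C1qb and C1qc were 17.0-fold, 7.90-fold and 13.9-fold higher in Bach2KO. The scavenger receptor gene Msr1 was 8.86-fold higher, whereas Marco, its relative on alveolar macrophages, was lower with a difference of -1.85. Colec12, a scavenger receptor with a collectin head, was lower with a difference of -2.27. Fcna, the ficolin A gene of macrophages, differed by 1.36, and by 0.65 with spike-in scaling.

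P4ha2, a prolyl 4-hydroxylase subunit gene, was not above background in WT and differed by 3.31. Its bound of 1.96-fold lay just under the threshold. The Bach2KO arrays of Nid2, a relative of Nid1, did not agree in level (-8.19 and -2.83, against -3.26 and -3.04 in WT), so that its difference of -2.36 rests on 1 array and met neither condition. Fap, a fibroblast activation gene on the list of fibroblast markers, was not above background in Bach2KO and differed by -2.81, with a bound of 1.94-fold.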
